A study of Macaca mulatta with 12 samples.

Results

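Potassium and sodium channel subunit genes were taken as every gene whose symbol begins with KCN, further letters and a number, or is SCN followed by a number and A or B. The rule used no measured value and found 100 genes of the 16745 in the table, of which 59 lay above a filter on low values and were tested among 12084 genes. RNA was sequenced from cultures labelled as Macaca mulatta (rhesus macaque) cardiomyocytes, derived from induced pluripotent stem cells, in 4 groups of 3 libraries. They were grown as a flat monolayer or in the form of engineered heart tissue (EHT), a strip of tissue cast in 3 dimensions, all in RPMI medium with B27 and insulin. Hypoxia meant an anaerobic pouch for 24 hours followed by 24 hours after fresh medium, and the control was normoxia; oxygen and the medium change cannot be told apart. The labels do not say whether the replicates were separate differentiations, so p-values cover the spread between these libraries, which may be technical. No genotype, cell line, clone or animal is given, and neither is the genome build, so genes are named by symbol and carry no positions.

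Potassium channels let potassium leave a cell, end the action potential and hold the resting voltage, whereas voltage-gated sodium channels carry the fast inward current that starts it. Pore-forming subunits work with beta and other accessory subunits that set how fast a channel opens and how much of it reaches the membrane. In heart muscle KCNH2 and KCNQ1 carry the rapid and slow delayed rectifiers, KCND genes with KCNIP2 the transient outward current, and KCNJ2 the resting inward rectifier. Smooth muscle and fibroblasts use KCNMA1, the large-conductance channel opened by calcium, and many other subunits are best known from neurons or epithelia.

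Values are scaled reads, which are reads recovered from the deposited values and divided by a scaling factor per library, so that a gene can be compared between libraries. They are not per length, so levels are not compared between genes. Values follow replicates 1, 2 and 3. Differences are log2 differences of group means of log2(scaled reads + 1), which understate the change of genes with few reads, given ± standard error with the p-value of limma adjusted by Benjamini-Hochberg over all 12084 genes. A gene was called at an adjusted p under 0.05, and "higher", "lower", "rose" and "fell" are used of called genes.

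Libraries held 4154346 to 11298841 reads, and 40 to 87 of the 100 genes had a read in a library, with the lowest number in EHT hypoxia replicate 3. The label was checked against 10 cardiomyocyte markers, among them TNNT2, MYH6, ACTN2 and RYR2; MYH7 and TTN were not analysed here. Their summed level, in RPM (the usual scaling of reads to a library's total), was 485 to 3546 RPM in monolayer normoxia, 5452 to 6019.7 in monolayer hypoxia, 14.1 to 167 in EHT normoxia and 20.4 to 779 in EHT hypoxia. In EHT it was lowest in the replicates numbered 3, with 14.1 in normoxia and 20.4 in hypoxia, and 7 of the 10 markers were lower in EHT than in monolayer in normoxia and 9 in hypoxia. None of the 10 was at 0 in a whole group. Fibroblast markers were abundant everywhere, from 33409 to 70499 RPM. Epithelial markers came to 1862 to 9224 RPM in monolayer normoxia, 105 to 128 in monolayer hypoxia, 8.16 to 15.9 in EHT normoxia and 13.8 to 171 in EHT hypoxia, with GRHL2 and ESRP1 at 0 in EHT normoxia. Smooth muscle markers came to 2939 to 4898 RPM in monolayer normoxia, 6349 to 7457 in monolayer hypoxia, 2101 to 3048 in EHT normoxia and 1359.8 to 1874 in EHT hypoxia. Neuronal markers came to 71.4 to 147 RPM over all groups. Fewer cells of a type and less RNA per cell cannot be told apart in these bulk samples, and the part of these markers in the results below was not tested.

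As a set, the channel genes took 742 ± 75.6 RPM in monolayer normoxia, 535 ± 31.3 in monolayer hypoxia, 513 ± 116 in EHT normoxia and 613 ± 24.4 in EHT hypoxia (mean ± SD, n = 3). KCNMA1 alone held 21.8% ± 5.14 and 16.3% ± 1.49 of these reads in monolayer normoxia and hypoxia, and 40.1% ± 4.54 and 49.4% ± 7.79 in EHT normoxia and hypoxia. The ranges of the cultures did not overlap. Of the 59 tested genes, 23 had their highest mean in monolayer normoxia, 17 in monolayer hypoxia, 7 in EHT normoxia and 12 in EHT hypoxia; over all tested genes the shares were 29.1%, 25.4%, 23.5% and 21.99%.

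Between the cultures in normoxia, 30 of 59 channel genes were called, 6 higher and 24 lower in EHT, where 42.5% of all genes were called (18.7% higher and 23.9% lower). Their median difference was -1.43 against -0.08 over all tested genes. In hypoxia 27 were called, 9 higher and 18 lower in EHT, with a background of 39.9% (17.8% and 22%) and a median of -0.96 against -0.08. Here and below, all genes were not matched to the channel genes by read level. The part of low levels in these shares and medians was not tested. In normoxia all genes gave 2257 higher and 2884 lower. A filter at 2 above the table minimum kept 10481 of them and gave 2199 and 2319. The split in normoxia depended on the scaling. It was 3 higher and 30 lower on the values as deposited, 10 and 20 after centring each library on its median, and 14 and 20 after quantile normalization. Over all 12084 genes the same fits gave 325 higher and 3099 lower, 2750 and 2234, and 2873 and 2613. In the plot of scaled reads per library, most genes have their highest values in the monolayer columns, and KCNN4 and KCNS1 have theirs in the EHT columns.

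**Figure D1:**
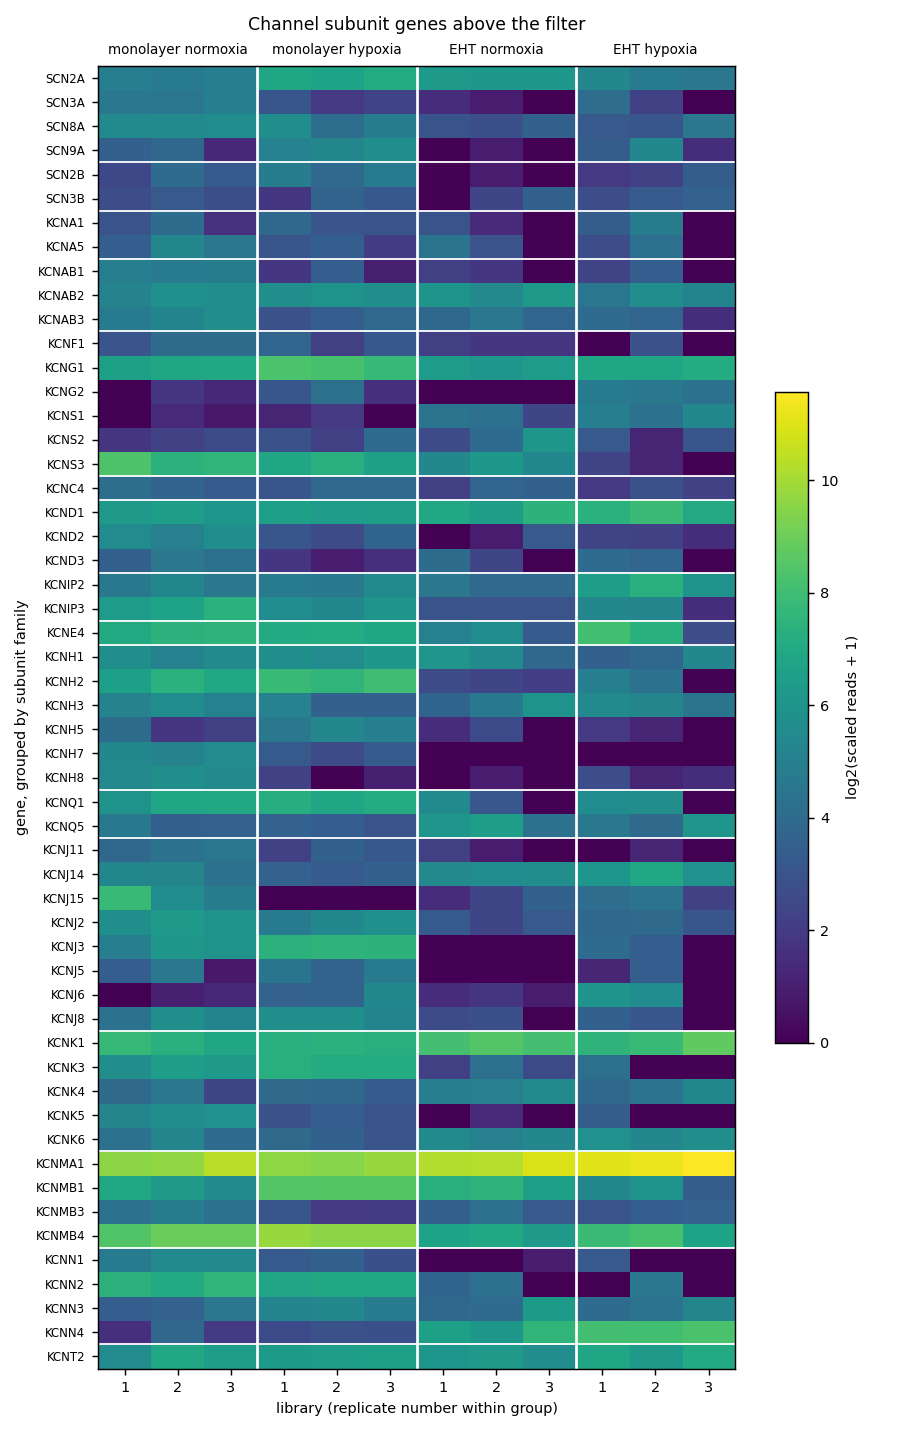
Scaled reads of 54 tested channel genes in each of the 12 libraries, grouped by role; colour gives log2(scaled reads + 1) as labelled on the scale. KCNH7 was at 0 in all 6 EHT libraries and KCNJ15 in all 3 libraries of monolayer hypoxia, and KCNMA1 lies between 1201 and 3050.1 scaled reads in the 6 EHT libraries.

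Hypoxia gave fewer calls. In monolayer 17 of 59 genes were called, 8 higher and 9 lower after hypoxia, against 46.5% of all genes (23.4% and 23.1%), and the median was 0.08 against -0.08. In EHT 13 were called, 10 higher and 3 lower, against 37.8% (19.5% and 18.2%), with a median of 0.66 against 0.01. The interaction, which asks whether hypoxia acted differently in the cultures, called 9 genes, 5 positive and 4 negative, against 25.5% (12.7% and 12.8%). In this fit the share of channel genes called was thus below that of all genes in these 3 comparisons. On the deposited values it was above it in all 3, with 7 called in EHT against 858 higher and 270 lower of all 12084. For monolayer the count depended on single libraries: it was 10, 9, 10, 10 and 11 without normoxia replicates 1 and 3 and hypoxia replicates 1, 2 and 3. For EHT it was 7 without normoxia replicate 1 and 8 without hypoxia replicate 2. Over all genes these monolayer fits gave 2521 higher and 2274 lower, 2533 and 2291, 2399 and 2244, 2307 and 2166, and 2433 and 2334. These EHT fits gave 1905 and 1656, and 1808 and 1709. The splits moved with the scaling: for monolayer, 4 higher and 13 lower on the deposited values, 13 and 6 after centring, 16 and 11 after quantile normalization and 3 and 18 after scaling to library totals. Over all genes they were 535 and 2410, 3362 and 2253, 2865 and 2740, and 1069 and 5784. For EHT, centring gave 6 higher and 3 lower, and 2360 and 1932 over all genes. For the interaction the positive and negative calls were 11 and 2 on the deposited values, 3 and 4 after centring, 5 and 8 after quantile normalization, and 13 and 3 with library totals. Over all genes these were 1147 and 102, 1248 and 1708, 1516 and 1625, and 2898 and 688.

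SCN2A, a sodium channel best known from the brain, had 29.5, 25.6 and 30.6 scaled reads in monolayer normoxia, 111, 105 and 140.2 in monolayer hypoxia, 73.97, 70.9 and 71.8 in EHT normoxia and 40.5, 25.3 and 22.8 in EHT hypoxia. The cultures did not overlap in either condition, and their order turned. EHT was higher in normoxia (1.31 ± 0.28, adjusted p = 0.00281) and lower in hypoxia (-2.00 ± 0.28, adjusted p = 0.000243). SCN2A rose after hypoxia in monolayer (2.01 ± 0.28, adjusted p = 0.000126) and fell in EHT (-1.31 ± 0.28, adjusted p = 0.00334), and the interaction was -3.31 ± 0.40, adjusted p = 0.000219. On the deposited values the culture difference in normoxia and the fall in EHT were no longer called.

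SCN8A, the channel of axon nodes and initial segments, had 45.1, 45.5 and 48.03 scaled reads in monolayer normoxia, 51.8, 17.3 and 27.6 in monolayer hypoxia, 7.04, 5.98 and 11.1 in EHT normoxia and 8.37, 7.60 and 22.8 in EHT hypoxia. SCN8A was lower in EHT in normoxia (-2.42 ± 0.51, adjusted p = 0.00253). The difference in hypoxia was not called (-1.28 ± 0.51, adjusted p = 0.0634). SCN3A, a sodium channel of the developing brain, had 23.8, 22.5 and 30.6 scaled reads in monolayer normoxia, 7.58, 2.73 and 4.09 in monolayer hypoxia, 1.76, 0.855 and 0 in EHT normoxia and 16.7, 3.80 and 0 in EHT hypoxia. Its reads in EHT normoxia were few, monolayer was 36.5-fold (95% exact counting interval 9.91 to 305) higher in pooled scaled reads, and SCN3A was lower in EHT there (-3.94 ± 0.91, adjusted p = 0.00423). SCN9A, a channel of sensory neurons, had 10.9, 13.6 and 1.46 scaled reads in monolayer normoxia, 34.1, 39.1 and 53.2 in monolayer hypoxia, 0, 0.855 and 0 in EHT normoxia and 9.77, 41.8 and 1.90 in EHT hypoxia. SCN9A rose after hypoxia in monolayer (2.50 ± 0.93, adjusted p = 0.0424) and in EHT (3.16 ± 0.93, adjusted p = 0.0177), where replicate 3 stayed near the level of normoxia. SCN9A was lower in EHT in normoxia (-2.61 ± 0.93, adjusted p = 0.0378). SCN9A lost its call between the cultures in normoxia (-2.91 to -2.14, adjusted p = 0.0517 to 0.134) when EHT normoxia replicate 1, 2 or 3, monolayer normoxia replicate 1 or 2 or monolayer hypoxia replicate 1, 2 or 3 was left out. SCN9A lost its call for hypoxia in monolayer (1.69 to 2.83, adjusted p = 0.0509 to 0.173) when EHT normoxia replicate 1, EHT hypoxia replicate 1, monolayer normoxia replicate 1 or 3 or monolayer hypoxia replicate 1, 2 or 3 was left out. SCN9A lost its call for hypoxia in EHT (2.19 to 3.02, adjusted p = 0.0523 to 0.0801) when EHT normoxia replicate 1 or EHT hypoxia replicate 2 was left out.

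Sodium channel beta subunits anchor the pore and shift its gating. SCN2B, a covalently bound beta subunit, had 4.66, 15.7 and 8.73 scaled reads in monolayer normoxia, 27.8, 14.6 and 25.6 in monolayer hypoxia, 0, 0.855 and 0 in EHT normoxia and 2.79, 3.80 and 9.50 in EHT hypoxia. SCN2B was lower in EHT in normoxia (-2.98 ± 0.65, adjusted p = 0.00302) and in hypoxia (-1.99 ± 0.65, adjusted p = 0.0285), and rose after hypoxia in EHT (2.23 ± 0.65, adjusted p = 0.0173). SCN2B lost its call between the cultures in hypoxia (-1.88 to -1.69, adjusted p = 0.0681 to 0.0971) when EHT hypoxia replicate 1 or 2 or monolayer hypoxia replicate 1 or 3 was left out. SCN2B lost its call for hypoxia in EHT (2.08, adjusted p = 0.0525) when EHT normoxia replicate 1 was left out. SCN3B, at 0 to 11.8 scaled reads in every library, had no call, and SCN4B, the beta subunit whose gene is prominent in heart, had no read.

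Genes of the cardiac delayed rectifiers were lower in EHT or did not pass the test. KCNH2, which encodes the pore of the rapid component, had 91.7, 165 and 119 scaled reads in monolayer normoxia, 219.7, 188 and 258 in monolayer hypoxia, 5.28, 4.27 and 3.42 in EHT normoxia and 30.7, 18.99 and 0 in EHT hypoxia. The cultures were far apart, with no overlap, and KCNH2 was lower in EHT in normoxia (-4.54 ± 0.94, adjusted p = 0.00227) and in hypoxia (-4.69 ± 0.94, adjusted p = 0.00224). These calls held whichever library was left out. Cardiomyocyte markers were at 606, 779 and 20.4 RPM in EHT hypoxia replicates 1, 2 and 3, and their part was not tested. In EHT hypoxia 2 libraries had reads and replicate 3 had none, and neither hypoxia difference was called (0.85 ± 0.94 in monolayer and 0.70 ± 0.94 in EHT, adjusted p = 0.49 and 0.592). These tests depended on EHT hypoxia replicate 3. Without it the KCNH2 difference after hypoxia was 2.26 in EHT (adjusted p = 0.000286) and an unchanged 0.85 in monolayer (adjusted p = 0.0386). Its interaction turned from -0.14 to 1.41 (adjusted p = 0.0372). Leaving out the library at 0 raises the mean of EHT hypoxia and lowers the shared spread in advance. These p-values thus cannot decide the differences.

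KCNQ1, the pore of the slow component, had 60.1, 114 and 122 scaled reads in monolayer normoxia, 146, 116 and 138 in monolayer hypoxia, 44.03, 7.69 and 0 in EHT normoxia and 48.8, 51.9 and 0 in EHT hypoxia. No culture difference was called (-3.70 ± 1.44, adjusted p = 0.055 in normoxia; -3.28 ± 1.44, adjusted p = 0.0885 in hypoxia). Every EHT library lay below every monolayer library, and the replicates numbered 3 were at 0. Without both EHT libraries numbered 3, a setting chosen after seeing the data, KCNQ1 was lower in EHT in normoxia (-2.27, adjusted p = 0.00311) and in hypoxia (-1.38, adjusted p = 0.048). Leaving out libraries at 0 lowers the spread in advance, so these p-values cannot decide the differences. With all 12 libraries the KCNQ1 difference in normoxia was called on the deposited values (adjusted p = 2.4e-07), after quantile normalization (0.029) and with library totals (0.0337). The same held with voom (0.0169), a pseudocount of 4 (0.0264), the replicate block (0.0317) and array weights (0.00976). It was also called when only the libraries of the compared groups were fitted (0.0367). That in hypoxia was called on the deposited values (adjusted p = 9.0e-05), after centring (0.0416), after quantile normalization (0.0259) and with a pseudocount of 4 (0.0468). KCNE4, an inhibitory partner of KCNQ1, had 129, 169.9 and 183 scaled reads in monolayer normoxia, 135, 137 and 114 in monolayer hypoxia, 33.5, 48.7 and 9.40 in EHT normoxia and 265, 162 and 5.70 in EHT hypoxia. Its EHT hypoxia libraries split into 2 high and 1 low, and no comparison was called. Without both replicates numbered 3 the KCNE4 difference was -1.95 (adjusted p = 5.3e-05) between cultures in normoxia and 2.33 (adjusted p = 3.9e-05) after hypoxia in EHT. Its interaction was then 2.64, adjusted p = 0.000173. The libraries left out were its lowest in EHT, so these p-values cannot decide the differences. KCNE1, the classical partner of KCNQ1, was not analysed here. KCNA5, the pore of the ultrarapid current of the atrium, had 9.84, 39.7 and 23.3 scaled reads in monolayer normoxia, 7.58, 10.01 and 3.07 in monolayer hypoxia, 21.1, 6.84 and 0 in EHT normoxia and 5.58, 17.7 and 0 in EHT hypoxia. KCNA5 had no call, whereas on the deposited values it was lower in EHT in normoxia and fell after hypoxia in monolayer (adjusted p = 0.0152 and 0.0346).

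**Figure D2:**
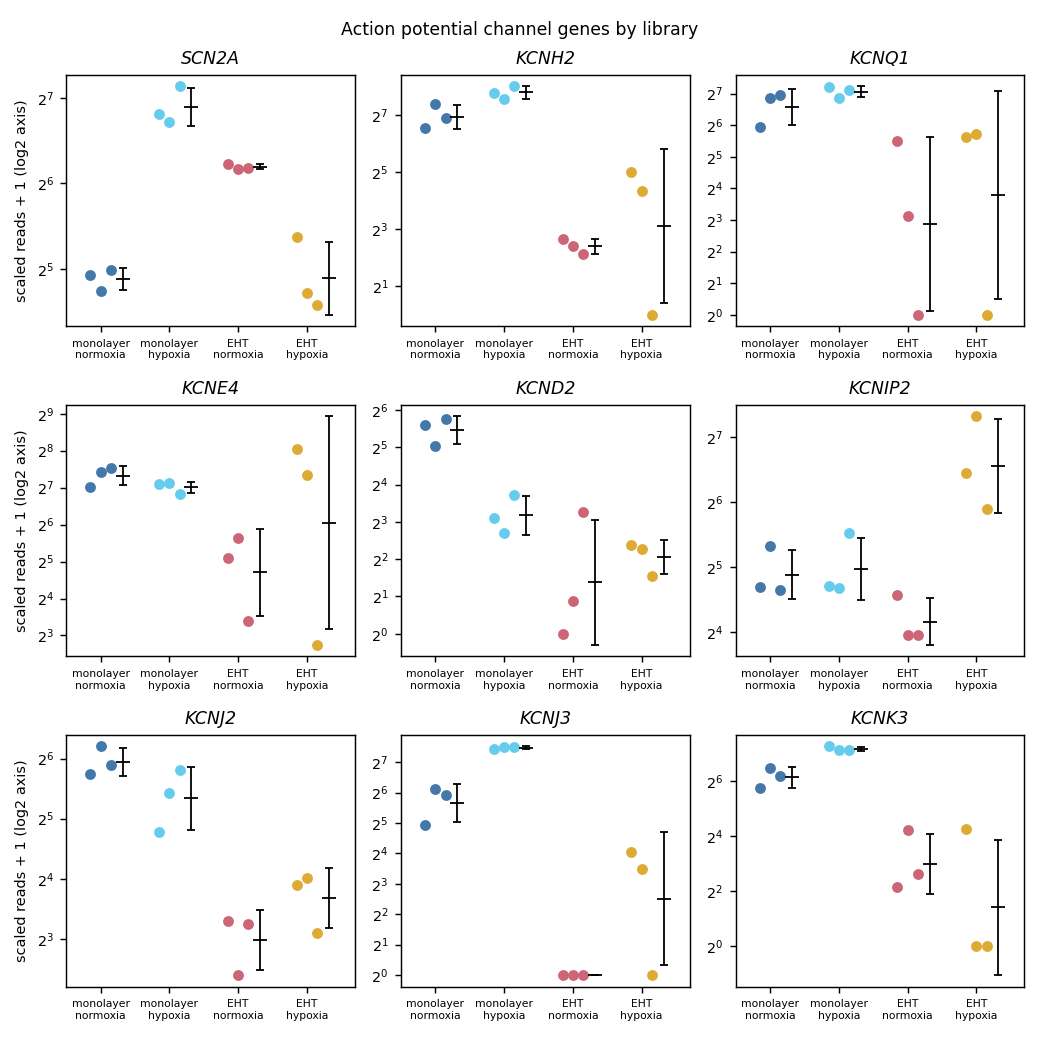
Scaled reads (log axis, plus 1) of 9 channel genes known from heart muscle in the 4 groups; points are libraries and bars the mean ± SD of log2(scaled reads + 1), n = 3. KCNH2, KCNJ2, KCNJ3 and KCNK3 lie lower in EHT in both conditions, and SCN2A changes order between normoxia and hypoxia.

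KCNQ5, a subunit of the M-current that damps the firing of neurons, had 24.9, 10.98 and 11.6 scaled reads in monolayer normoxia, 11.4, 10.01 and 7.16 in monolayer hypoxia, 65.2, 86.3 and 19.6 in EHT normoxia and 23.7, 15.2 and 64.6 in EHT hypoxia. Its groups overlapped in normoxia and no comparison was called (1.64 ± 0.63, adjusted p = 0.0524 between cultures in normoxia).

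The ether-a-go-go relatives of KCNH2 were also lower in EHT where they were called. KCNH7, a neuronal relative, had 41.95, 35.02 and 46.6 scaled reads in monolayer normoxia, 8.84, 5.46 and 9.21 in monolayer hypoxia, 0, 0 and 0 in EHT normoxia and 0, 0 and 0 in EHT hypoxia. It was absent from the reads of all EHT libraries, at least 39.4-fold below monolayer in normoxia and at least 5.20-fold below it in hypoxia by pooled level, taking 3 reads over the group as the limit, and was lower in both (-5.39 ± 0.57 and -3.11 ± 0.57, adjusted p = 2.1e-05 and 0.00121). It also fell after hypoxia in monolayer (-2.28 ± 0.57, adjusted p = 0.00599). KCNH8, a channel of the ELK branch, had 42.99, 53.3 and 42.9 scaled reads in monolayer normoxia, 3.79, 0 and 1.02 in monolayer hypoxia, 0, 0.855 and 0 in EHT normoxia and 5.58, 1.27 and 1.90 in EHT hypoxia. Most of its reads lay in monolayer normoxia. Glial and neural crest markers, summed, had 68.3 to 128 RPM there and 2.07 to 13.6 in the other groups, and their part was not tested. KCNH8 was lower in EHT in normoxia (-5.26 ± 0.73, adjusted p = 0.000141) and fell after hypoxia in monolayer (-4.47 ± 0.73, adjusted p = 0.000376), with an interaction of 5.98 ± 1.03, adjusted p = 0.00166.

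KCNH1 and KCNH5, the EAG channels, were separated by culture in hypoxia. KCNH5 had 16.1, 2.61 and 3.64 scaled reads in monolayer normoxia, 23.99, 40.05 and 30.7 in monolayer hypoxia, 1.76, 5.13 and 0 in EHT normoxia and 2.79, 1.27 and 0 in EHT hypoxia. KCNH5 rose after hypoxia in monolayer (2.28 ± 0.84, adjusted p = 0.0415) and was lower in EHT in hypoxia (-3.96 ± 0.84, adjusted p = 0.00299). KCNH1 had 52.8, 33.5 and 43.7 scaled reads in monolayer normoxia, 53.03, 46.4 and 71.6 in monolayer hypoxia, 65.2, 46.2 and 13.7 in EHT normoxia and 11.2, 13.9 and 39.9 in EHT hypoxia, and was lower in EHT in hypoxia (-1.55 ± 0.57, adjusted p = 0.047). KCNH5 lost its call for hypoxia in monolayer (1.84 to 2.45, adjusted p = 0.0527 to 0.14) when EHT normoxia replicate 1, monolayer normoxia replicate 2 or 3 or monolayer hypoxia replicate 1, 2 or 3 was left out. KCNH1 lost its call between the cultures in hypoxia (-1.68 to -1.21, adjusted p = 0.0572 to 0.143) when EHT normoxia replicate 2, EHT hypoxia replicate 1 or 2, monolayer normoxia replicate 1, 2 or 3 or monolayer hypoxia replicate 1, 2 or 3 was left out. KCNH3 had 10.9 to 58.1 scaled reads over the libraries and no call.

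Transient outward channel genes were divided. KCND2, an A-type pore known from neurons and heart, had 47.1, 31.9 and 53.1 scaled reads in monolayer normoxia, 7.58, 5.46 and 12.3 in monolayer hypoxia, 0, 0.855 and 8.54 in EHT normoxia and 4.19, 3.80 and 1.90 in EHT hypoxia. KCND2 was lower in EHT in normoxia (-4.08 ± 0.76, adjusted p = 0.00108) and fell after hypoxia in monolayer (-2.29 ± 0.76, adjusted p = 0.0256). Its interaction of 2.96 was not called. It was called on the deposited values (adjusted p = 0.0207), with library totals (0.035), a pseudocount of 4 (0.0256) and array weights (0.00539). KCND1, a relative, had 72.5, 85.2 and 66.9 scaled reads in monolayer normoxia, 92.2, 83.7 and 89.02 in monolayer hypoxia, 119.8, 88.9 and 179 in EHT normoxia and 169, 239 and 125 in EHT hypoxia and was higher in EHT in hypoxia (0.95 ± 0.29, adjusted p = 0.0197). KCND3, the A-type pore of human heart, had 10.9, 23.00 and 18.2 scaled reads in monolayer normoxia, 2.53, 0.91 and 2.05 in monolayer hypoxia, 15.8, 4.27 and 0 in EHT normoxia and 15.3, 12.7 and 0 in EHT hypoxia and no call, and was at 0 in the EHT replicates numbered 3. Its difference after hypoxia in monolayer was -2.69 ± 1.14, adjusted p = 0.0701. It was called with library totals, a pseudocount of 4, array weights, the replicate block and other settings (adjusted p = 0.00171 to 0.04954). Without both of those libraries, a setting chosen after seeing the data, the KCND3 difference after hypoxia in monolayer was -2.69 (adjusted p = 0.00171). That between cultures in hypoxia was 2.45 (adjusted p = 0.00916), against 1.15 ± 1.14 with all libraries, and the interaction 3.35 (adjusted p = 0.0131). Leaving out the libraries at 0 raises the EHT means and lowers the spread in advance, so these p-values cannot decide the differences. KCND2 lost its call for hypoxia in monolayer (-2.25 to -2.05, adjusted p = 0.066 to 0.088) when monolayer normoxia replicate 1 or 3 or monolayer hypoxia replicate 1 or 2 was left out. KCND1 lost its call between the cultures in hypoxia (0.72 to 0.96, adjusted p = 0.05003 to 0.0797) when EHT hypoxia replicate 2 or monolayer hypoxia replicate 2 or 3 was left out.

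KCNIP2, the calcium-binding partner that brings A-type pores to the membrane in heart, had 24.9, 39.2 and 24.01 scaled reads in monolayer normoxia, 25.3, 24.6 and 45.02 in monolayer hypoxia, 22.9, 14.5 and 14.5 in EHT normoxia and 86.5, 159.6 and 58.9 in EHT hypoxia. EHT hypoxia stood apart: all 3 of its libraries lay above the other 9, and KCNIP2 rose after hypoxia in EHT (2.40 ± 0.43, adjusted p = 0.000972) and was higher in EHT in hypoxia (1.59 ± 0.43, adjusted p = 0.011). Its change in monolayer was not called (0.08 ± 0.43, adjusted p = 0.89), and the interaction was 2.31 ± 0.60, adjusted p = 0.0147. KCNIP3, a partner that also acts as a transcription factor, had 82.9, 103 and 168 scaled reads in monolayer normoxia, 49.2, 40.96 and 62.4 in monolayer hypoxia, 7.04, 6.84 and 6.83 in EHT normoxia and 40.5, 37.99 and 1.90 in EHT hypoxia. KCNIP3 was lower in EHT in normoxia (-3.85 ± 0.80, adjusted p = 0.00222). Of the cytoplasmic beta subunits of voltage-gated potassium channels, KCNAB1 had 29.5, 25.6 and 27.7 scaled reads in monolayer normoxia, 2.53, 10.01 and 1.02 in monolayer hypoxia, 3.52, 2.56 and 0 in EHT normoxia and 4.19, 10.1 and 0 in EHT hypoxia. KCNAB1 was lower in EHT in normoxia (-3.50 ± 0.95, adjusted p = 0.0109) and fell after hypoxia in monolayer (-2.74 ± 0.95, adjusted p = 0.0319). KCNAB3 had 26.4, 36.1 and 50.9 scaled reads in monolayer normoxia, 6.31, 10.01 and 14.3 in monolayer hypoxia, 14.1, 23.1 and 12.8 in EHT normoxia and 15.3, 12.7 and 1.90 in EHT hypoxia, and fell after hypoxia in monolayer (-1.81 ± 0.64, adjusted p = 0.034), and KCNAB2 had no call. KCNAB1 lost its call for hypoxia in monolayer (-2.79 to -2.20, adjusted p = 0.0686 to 0.119) when monolayer normoxia replicate 1, 2 or 3 or monolayer hypoxia replicate 1 or 3 was left out. KCNAB3 lost its call for hypoxia in monolayer (-1.83 to -1.53, adjusted p = 0.0756 to 0.116) when monolayer normoxia replicate 2 or 3 or monolayer hypoxia replicate 1 or 2 was left out.

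Inward rectifier genes, which hold the resting voltage, had 8 of 13 members tested, and 6 were lower and none higher in EHT in normoxia; in hypoxia 4 were lower and 2 higher. KCNJ2, the main inward rectifier of ventricular muscle, had 52.8, 72.7 and 58.2 scaled reads in monolayer normoxia, 26.5, 41.9 and 55.3 in monolayer hypoxia, 8.81, 4.27 and 8.54 in EHT normoxia and 13.95, 15.2 and 7.60 in EHT hypoxia. The cultures did not overlap, and KCNJ2 was lower in EHT in normoxia (-2.96 ± 0.44, adjusted p = 0.000214) and in hypoxia (-1.66 ± 0.44, adjusted p = 0.00973). KCNJ12, its close relative in heart, was not analysed here.

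KCNJ3, a pore of the channel through which acetylcholine slows the atrium, had 29.5, 67.95 and 59.7 scaled reads in monolayer normoxia, 172, 181 and 179 in monolayer hypoxia, 0, 0 and 0 in EHT normoxia and 15.3, 10.1 and 0 in EHT hypoxia. It had no read in EHT normoxia, where monolayer was at least 49.98-fold higher, and was lower in EHT in both conditions (-5.65 ± 0.83 in normoxia and -4.98 ± 0.83 in hypoxia, adjusted p = 0.000212 and 0.000688). KCNJ3 rose after hypoxia in EHT (2.50 ± 0.83, adjusted p = 0.0318), and in monolayer every hypoxia library lay above every normoxia library without a call (1.82 ± 0.83, adjusted p = 0.0903). The rise was called in the fits with centring, quantile normalization, voom, a pseudocount of 4, array weights and the compared groups alone (adjusted p = 0.000301 to 0.0142), and without EHT hypoxia replicate 3 (0.00219). KCNJ5, its partner in the atrium, had 9.84, 24.04 and 0.728 scaled reads in monolayer normoxia, 21.5, 11.8 and 26.6 in monolayer hypoxia, 0, 0 and 0 in EHT normoxia and 1.40, 10.1 and 0 in EHT hypoxia and was lower in EHT in normoxia (-2.96 ± 1.04, adjusted p = 0.0362). Its span overlaps KCNJ1 in RefSeq, and the strand used in counting is not given. KCNJ6, the form of neurons, had 0, 1.05 and 1.46 scaled reads in monolayer normoxia, 11.4, 11.8 and 41.95 in monolayer hypoxia, 1.76, 2.56 and 0.854 in EHT normoxia and 62.8, 48.1 and 0 in EHT hypoxia and rose after hypoxia in monolayer (3.47 ± 1.28, adjusted p = 0.0415). KCNJ3 lost its call for hypoxia in EHT (1.74 to 2.50, adjusted p = 0.0605 to 0.129) when EHT normoxia replicate 1, 2 or 3 or EHT hypoxia replicate 1 or 2 was left out. KCNJ5 lost its call between the cultures in normoxia (-2.96 to -2.11, adjusted p = 0.0506 to 0.155) when EHT normoxia replicate 1, 2 or 3, monolayer normoxia replicate 1 or 2 or monolayer hypoxia replicate 1 or 3 was left out. KCNJ6 lost its call for hypoxia in monolayer (2.88 to 3.78, adjusted p = 0.0526 to 0.144) when any library of the groups compared or EHT normoxia replicate 1 or 2 was left out.

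The pores of the channel closed by ATP were lower in EHT. KCNJ8, known from vascular smooth muscle, had 19.7, 53.3 and 36.4 scaled reads in monolayer normoxia, 53.03, 52.8 and 35.8 in monolayer hypoxia, 5.28, 5.98 and 0 in EHT normoxia and 11.2, 7.60 and 0 in EHT hypoxia and was lower in EHT in normoxia (-3.30 ± 0.94, adjusted p = 0.0141) and in hypoxia (-3.33 ± 0.94, adjusted p = 0.0145). Without EHT hypoxia replicate 3 the difference in hypoxia was -2.21 (adjusted p = 0.036). KCNJ11, the pore in heart muscle and the pancreas, had 13.98, 19.3 and 22.6 scaled reads in monolayer normoxia, 3.79, 10.9 and 8.19 in monolayer hypoxia, 3.52, 0.855 and 0 in EHT normoxia and 0, 1.27 and 0 in EHT hypoxia, and was lower in EHT in normoxia (-3.25 ± 0.73, adjusted p = 0.00378) and in hypoxia (-2.62 ± 0.73, adjusted p = 0.0137). KCNJ8 lost its call between the cultures in normoxia (-2.98 to -2.39, adjusted p = 0.0541 to 0.0546) when EHT normoxia replicate 3 or monolayer normoxia replicate 2 was left out. KCNJ11 lost its call between the cultures in hypoxia (-2.34, adjusted p = 0.0609) when monolayer hypoxia replicate 2 was left out.

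KCNJ15, a rectifier known from kidney and other epithelia, had 224, 48.6 and 27.7 scaled reads in monolayer normoxia, 0, 0 and 0 in monolayer hypoxia, 1.76, 4.27 and 11.1 in EHT normoxia and 16.7, 20.3 and 3.80 in EHT hypoxia. Monolayer hypoxia had no read, and monolayer normoxia was at least 103-fold higher by pooled level. KCNJ15 fell after hypoxia in monolayer (-6.10 ± 0.85, adjusted p = 0.000121), was lower in EHT in normoxia (-3.61 ± 0.85, adjusted p = 0.00495) and higher in EHT in hypoxia (3.61 ± 0.85, adjusted p = 0.00553), and had an interaction of 7.22 ± 1.20, adjusted p = 0.00138. The epithelial markers, at 9224, 2338 and 1862 RPM in monolayer normoxia replicates 1, 2 and 3, were in the same order as KCNJ15 there and came to 171 RPM or less in the other groups; their part was not tested. KCNJ14, a rectifier of motor neurons, had 39.4, 37.1 and 18.9 scaled reads in monolayer normoxia, 11.4, 9.10 and 11.3 in monolayer hypoxia, 42.3, 48.7 and 52.1 in EHT normoxia and 66.96, 118 and 57.01 in EHT hypoxia. It fell after hypoxia in monolayer (-1.44 ± 0.38, adjusted p = 0.00823), was higher in EHT in hypoxia (2.75 ± 0.38, adjusted p = 0.00022) and had an interaction of 2.12 ± 0.54, adjusted p = 0.0132. The fall of KCNJ14 and its interaction were not called after centring or quantile normalization, nor was the fall on the deposited values. Its span overlaps GRWD1 in RefSeq.

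Of the potassium channels with tandem pore domains, which carry background leak, 5 of 13 were tested. KCNK3, an acid-sensitive leak channel of heart and lung vessels, had 52.3, 88.9 and 72.8 scaled reads in monolayer normoxia, 153, 138 and 139 in monolayer hypoxia, 3.52, 17.95 and 5.13 in EHT normoxia and 18.1, 0 and 0 in EHT hypoxia. KCNK3 was lower in EHT in normoxia (-3.13 ± 0.95, adjusted p = 0.0186) and in hypoxia (-5.75 ± 0.95, adjusted p = 0.000638), where reads were found in 1 of 3 libraries. KCNK1, a weakly conducting relative found in many tissues, had 214, 153 and 112 scaled reads in monolayer normoxia, 155, 169 and 153 in monolayer hypoxia, 278, 354 and 276 in EHT normoxia and 184, 232 and 426 in EHT hypoxia and was higher in EHT in normoxia (0.96 ± 0.29, adjusted p = 0.02). KCNK6, its nearest relative, had 19.7, 37.6 and 15.3 scaled reads in monolayer normoxia, 15.2, 10.9 and 7.16 in monolayer hypoxia, 44.03, 31.6 and 40.1 in EHT normoxia and 57.2, 40.5 and 51.3 in EHT hypoxia and was higher in EHT in hypoxia (2.11 ± 0.41, adjusted p = 0.00191); its span overlaps YIF1B. KCNK5, an alkaline-activated channel of kidney epithelium, had 37.3, 49.7 and 57.5 scaled reads in monolayer normoxia, 6.31, 10.01 and 7.16 in monolayer hypoxia, 0, 1.71 and 0 in EHT normoxia and 9.77, 0 and 0 in EHT hypoxia. KCNK5 was lower in EHT in normoxia (-5.12 ± 0.87, adjusted p = 0.000608) and fell after hypoxia in monolayer (-2.48 ± 0.87, adjusted p = 0.0339). KCNK4, a mechanically gated leak channel, had no call. KCNK3 lost its call between the cultures in normoxia (-2.96 to -2.71, adjusted p = 0.0515 to 0.0682) when EHT normoxia replicate 1 or 3 or monolayer normoxia replicate 2 was left out. KCNK1 lost its call between the cultures in normoxia (0.73 to 0.95, adjusted p = 0.05043 to 0.0864) when EHT normoxia replicate 2 or monolayer normoxia replicate 2 or 3 was left out. KCNK5 lost its call for hypoxia in monolayer (-2.65 to -2.34, adjusted p = 0.0604 to 0.0935) when any library of the groups compared was left out.

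The large-conductance calcium-activated channel differed between its pore and its accessory subunits. KCNMA1, the pore, had 744, 793 and 1278 scaled reads in monolayer normoxia, 784, 699 and 883 in monolayer hypoxia, 1201, 1260.0 and 1932 in EHT normoxia and 2044, 2416 and 3050.1 in EHT hypoxia. EHT hypoxia lay above all other libraries, and KCNMA1 was higher in EHT in normoxia (0.65 ± 0.23, adjusted p = 0.04; -0.0252 on the deposited values) and in hypoxia (1.65 ± 0.23, adjusted p = 0.000247). KCNMA1 rose after hypoxia in EHT (0.79 ± 0.23, adjusted p = 0.019) and not detectably in monolayer (-0.21 ± 0.23, adjusted p = 0.483), with an interaction of 1.001 ± 0.33, adjusted p = 0.0425. The cultures overlapped in normoxia. KCNMA1 lost its call between the cultures in normoxia (0.43 to 0.74, adjusted p = 0.05021 to 0.16) when EHT normoxia replicate 2 or 3, monolayer normoxia replicate 1 or 2 or monolayer hypoxia replicate 1, 2 or 3 was left out. KCNMA1 lost its call for hypoxia in EHT (0.66 to 0.70, adjusted p = 0.0708 to 0.0771) when EHT normoxia replicate 1 or 2 was left out. KCNMA1 lost its call for the interaction (0.76 to 1.09, adjusted p = 0.0549 to 0.102) when EHT normoxia replicate 1 or 2, EHT hypoxia replicate 2 or 3, monolayer normoxia replicate 3 or monolayer hypoxia replicate 1, 2 or 3 was left out. The call in hypoxia held in all 12 fits.

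KCNMB1, the beta subunit of smooth muscle that raises the channel's calcium sensitivity, had 119, 74.2 and 45.1 scaled reads in monolayer normoxia, 352, 364 and 369 in monolayer hypoxia, 151, 181 and 91.4 in EHT normoxia and 39.1, 58.3 and 9.50 in EHT hypoxia. KCNMB1 rose after hypoxia in monolayer (2.28 ± 0.54, adjusted p = 0.00438) and fell in EHT (-2.23 ± 0.54, adjusted p = 0.00663), with groups that did not overlap in either culture. The interaction was -4.51 ± 0.76, adjusted p = 0.0015, and EHT was lower in hypoxia (-3.63 ± 0.54, adjusted p = 0.000339). The summed smooth muscle markers had the same order of groups at its ends, highest in monolayer hypoxia and lowest in EHT hypoxia, and their part was not tested. KCNMB4, the beta subunit of neurons, had 339.8, 484 and 485 scaled reads in monolayer normoxia, 888, 766 and 763 in monolayer hypoxia, 106, 121 and 72.6 in EHT normoxia and 237, 295 and 105 in EHT hypoxia. KCNMB4 was lower in EHT in normoxia (-2.13 ± 0.32, adjusted p = 0.000274) and in hypoxia (-2.04 ± 0.32, adjusted p = 0.000513), and rose after hypoxia in monolayer (0.90 ± 0.32, adjusted p = 0.0378) and in EHT (0.99 ± 0.32, adjusted p = 0.0306). KCNMB3, a further beta subunit, had 19.2, 29.3 and 18.2 scaled reads in monolayer normoxia, 7.58, 2.73 and 3.07 in monolayer hypoxia, 10.6, 17.95 and 8.54 in EHT normoxia and 6.98, 10.1 and 11.4 in EHT hypoxia, and fell after hypoxia in monolayer (-2.16 ± 0.51, adjusted p = 0.00448). KCNMB4 lost its call for hypoxia in monolayer (0.73 to 0.99, adjusted p = 0.0553 to 0.132) when any library of the groups compared was left out. KCNMB4 lost its call for hypoxia in EHT (0.69 to 1.05, adjusted p = 0.0567 to 0.132) when EHT normoxia replicate 1 or 3 or EHT hypoxia replicate 1 or 2 was left out.

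Small- and intermediate-conductance calcium-activated channels were divided by culture. KCNN4, the intermediate channel of fibroblasts, lymphocytes and red cells, had 2.07, 13.1 and 2.91 scaled reads in monolayer normoxia, 5.05, 6.37 and 6.14 in monolayer hypoxia, 95.1, 69.2 and 191 in EHT normoxia and 275, 265 and 304 in EHT hypoxia. Every EHT library lay above every monolayer library, and KCNN4 was higher in EHT in normoxia (4.30 ± 0.54, adjusted p = 6.5e-05) and in hypoxia (5.37 ± 0.54, adjusted p = 2.5e-05). KCNN2, the small-conductance channel of atrium and brain, had 171, 136 and 197 scaled reads in monolayer normoxia, 109, 118 and 123 in monolayer hypoxia, 12.3, 17.95 and 0 in EHT normoxia and 0, 22.8 and 0 in EHT hypoxia. KCNN2 was lower in EHT in normoxia (-4.73 ± 1.19, adjusted p = 0.00731) and in hypoxia (-5.35 ± 1.19, adjusted p = 0.00403). KCNN1, a neuronal relative, had 26.4, 46.00 and 42.9 scaled reads in monolayer normoxia, 8.84, 10.9 and 6.14 in monolayer hypoxia, 0, 0 and 0.854 in EHT normoxia and 8.37, 0 and 0 in EHT hypoxia. KCNN1 was lower in EHT in normoxia (-4.97 ± 0.83, adjusted p = 0.000549), where 3 libraries held 1 read in all, and KCNN3 had no call. The calls of KCNN4 and KCNN2 between cultures held whichever library was left out. Summed fibroblast markers ran from 33409 to 70499 RPM with overlapping ranges in the cultures, and summed immune markers from 10.5 to 343. Of the 10 fibroblast markers, 4 were higher and 0 lower in EHT in normoxia, and 4 and 1 in hypoxia. Over all genes 18.7% were higher and 23.9% lower in normoxia, and 17.8% and 22% in hypoxia. The part of these markers was not tested.

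**Figure D3:**
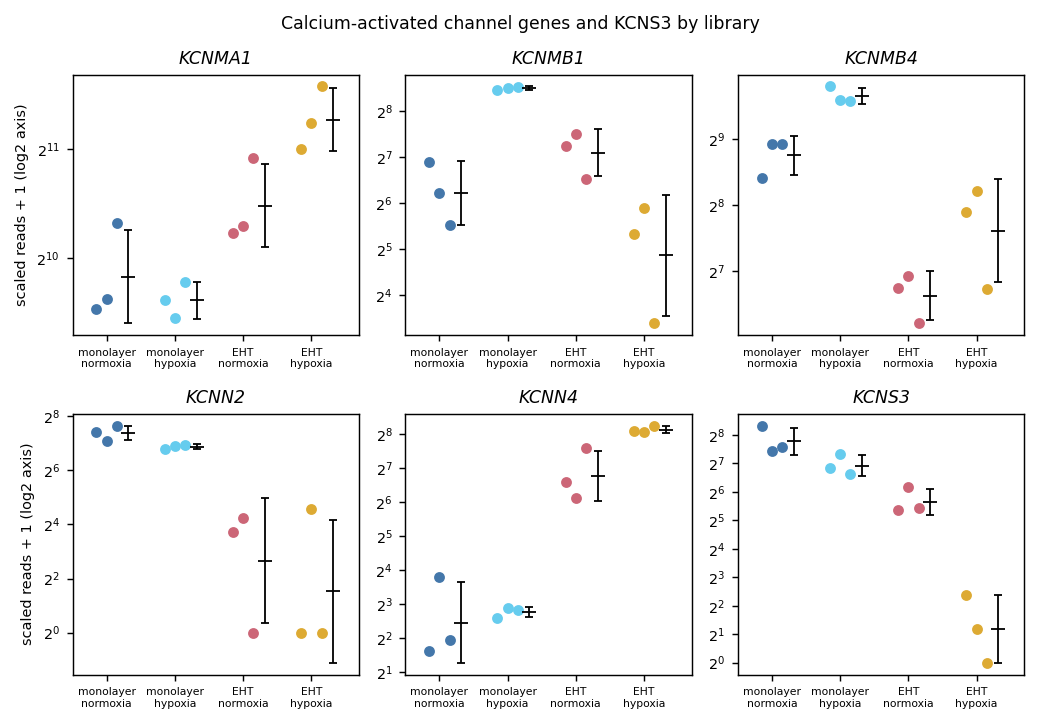
Scaled reads (log axis, plus 1) of 5 genes of calcium-activated channels and of KCNS3 in the 4 groups; points are libraries and bars the mean ± SD of log2(scaled reads + 1), n = 3. KCNN4 is higher in EHT, KCNMB4 and KCNN2 lower, and KCNMB1 rises in monolayer and falls in EHT after hypoxia. KCNMA1 is higher in EHT in hypoxia. Its call in normoxia is lost on the deposited values, after quantile normalization and with library totals. It is also lost without both EHT libraries numbered 3 and in some fits without 1 library.

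Among the electrically silent subunits, which form no channel alone and modify delayed rectifier pores, KCNS3 had 320.1, 172 and 189 scaled reads in monolayer normoxia, 112, 159 and 98.2 in monolayer hypoxia, 40.5, 71.8 and 41.9 in EHT normoxia and 4.19, 1.27 and 0 in EHT hypoxia. KCNS3 was lower in EHT in normoxia (-2.12 ± 0.52, adjusted p = 0.00654) and in hypoxia (-5.74 ± 0.52, adjusted p = 1.5e-05), where a few reads were left. KCNS3 fell after hypoxia in EHT (-4.48 ± 0.52, adjusted p = 5.5e-05), its change in monolayer was not called (-0.85 ± 0.52, adjusted p = 0.205), and the interaction was -3.62 ± 0.74, adjusted p = 0.0042. KCNS1 had 0, 1.57 and 0.728 scaled reads in monolayer normoxia, 1.26, 2.73 and 0 in monolayer hypoxia, 21.1, 17.95 and 4.27 in EHT normoxia and 30.7, 18.99 and 41.8 in EHT hypoxia, and was higher in EHT in normoxia (2.99 ± 0.75, adjusted p = 0.00719) and in hypoxia (3.88 ± 0.75, adjusted p = 0.00177).

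KCNG1 had 94.8, 111 and 116 scaled reads in monolayer normoxia, 314, 292 and 216 in monolayer hypoxia, 84.5, 65.8 and 81.1 in EHT normoxia and 110.2, 113 and 144 in EHT hypoxia. KCNG1 rose after hypoxia in monolayer (1.33 ± 0.21, adjusted p = 0.000312) and in EHT (0.66 ± 0.21, adjusted p = 0.0281), and was lower in EHT in hypoxia (-1.15 ± 0.21, adjusted p = 0.00131). KCNG2 had 0, 2.61 and 1.46 scaled reads in monolayer normoxia, 7.58, 18.2 and 2.05 in monolayer hypoxia, 0, 0 and 0 in EHT normoxia and 26.5, 24.1 and 19.00 in EHT hypoxia. With no read in EHT normoxia, it was at least 22.9-fold higher in EHT hypoxia by pooled level and rose there (4.58 ± 0.77, adjusted p = 0.000673); its span overlaps SLC66A2 in RefSeq. KCNG1 lost its call for hypoxia in EHT (0.53 to 0.55, adjusted p = 0.0672 to 0.103) when EHT normoxia replicate 2 or EHT hypoxia replicate 3 was left out. No comparison was called for KCNT2, a sodium-activated channel, whose libraries held 46.6 to 133 scaled reads, or for KCNA1, KCNC4, KCNF1 and KCNS2.

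**Figure D4:**
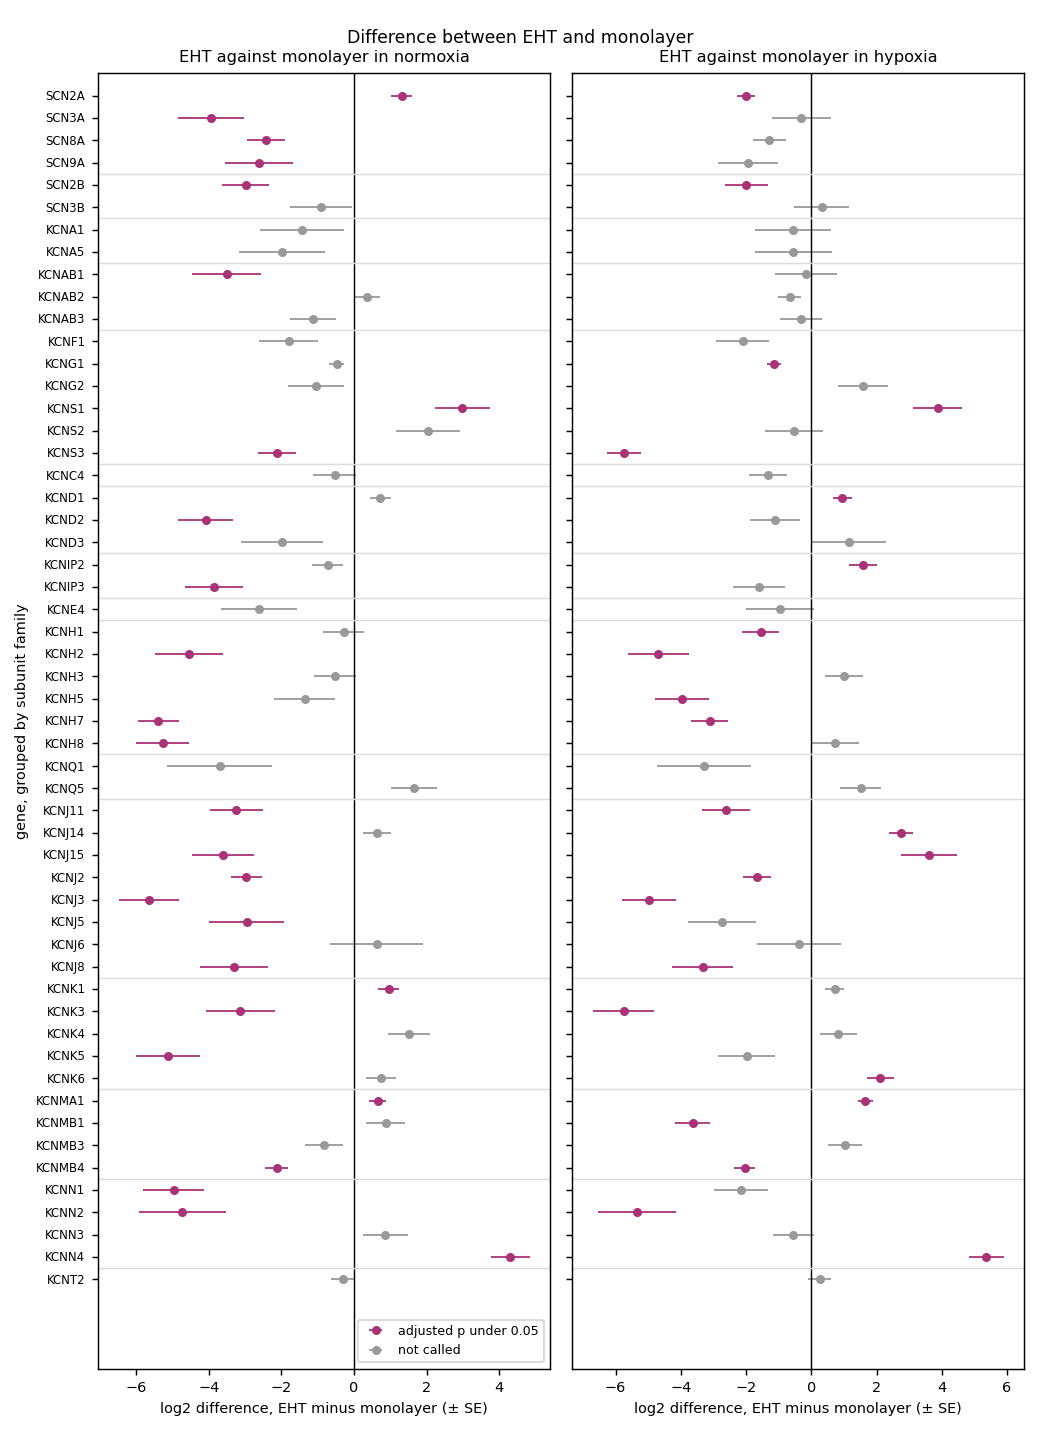
Log2 difference of EHT against monolayer, ± standard error, for 54 tested channel genes in normoxia and in hypoxia, on log2(scaled reads + 1). In normoxia 5 called genes lie to the right of 0 and 22 to the left; in hypoxia 8 and 16.

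The plot of the hypoxia difference in each culture sets the genes with an interaction side by side; the cultures share no library. Genes with an interaction were KCNH8, KCNIP2, KCNJ14, KCNJ15 and KCNMA1 with a positive value and KCNMB1, KCNS3 and SCN2A with a negative one. Of these, KCNMB1 and SCN2A were called in both cultures with opposite signs. KCNG1, KCNMB4 and SCN9A rose in both cultures. Their interactions were not called: -0.68 ± 0.30 (adjusted p = 0.119) for KCNG1, 0.09 ± 0.46 (adjusted p = 0.91) for KCNMB4 and 0.67 ± 1.31 (adjusted p = 0.746) for SCN9A. Leaving out EHT hypoxia replicate 3 raised the interaction calls from 9 to 20 of 59. Over all 12084 genes it raised them as well, from 1531 positive and 1550 negative to 2144 and 1992. Without both EHT libraries numbered 3, a setting chosen after seeing the data, the calls between cultures were 33 in normoxia and 29 in hypoxia. Those for hypoxia were 26 in monolayer and 21 in EHT, and those of the interaction 23. Over all genes, higher and lower calls were then 2487 and 3214, 2395 and 2868, 3350 and 3482, 2971 and 2586, and 2281 and 2099. These were also above those with all libraries in every comparison.

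**Figure D5:**
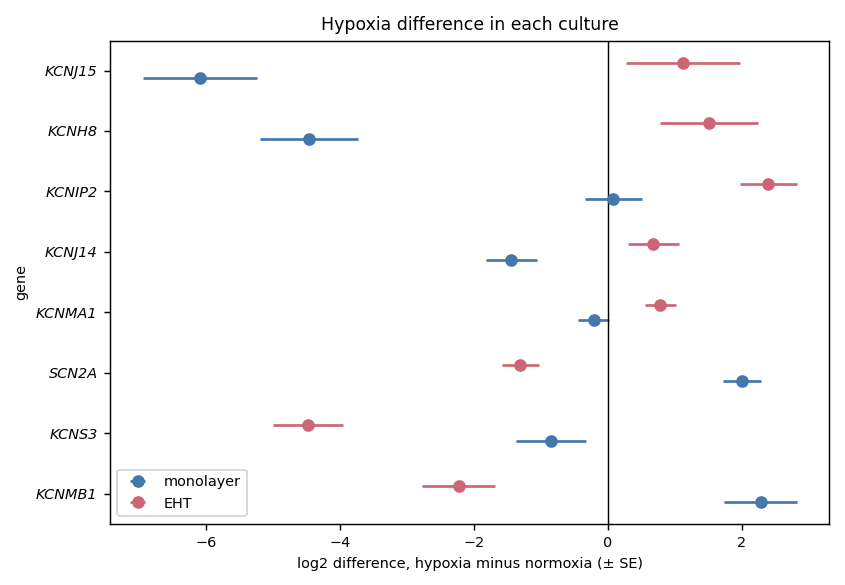
Log2 difference of hypoxia against normoxia, ± standard error, in monolayer and in EHT for 8 genes with a called interaction, on log2(scaled reads + 1). KCNJ15 and KCNH8 lie at -6.10 and -4.47 in monolayer, and KCNMB1 and SCN2A lie below 0 in EHT and above it in monolayer.

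Some calls between groups depended on the scaling. On the deposited values the culture calls in normoxia of KCNK1, KCNMA1 and SCN2A were lost (adjusted p = 0.469 to 0.974), as were those in hypoxia of KCND1, KCNG1, KCNH1, KCNIP2, KCNJ11, KCNJ2 and SCN2B (0.0764 to 0.297). Centring lost KCNJ5, SCN2B and SCN9A in normoxia (0.0925 to 0.515) and KCNJ15 and SCN2B in hypoxia (0.0506 to 0.0561). Quantile normalization lost KCNJ11, KCNJ5, KCNMA1, SCN2B, SCN8A and SCN9A in normoxia (0.0528 to 0.619) and KCNH1 and KCNJ11 in hypoxia (0.0561 to 0.0768). Library totals lost KCNK1 and KCNMA1 in normoxia (0.0731 to 0.271) and KCNH1 in hypoxia (0.0584). Voom lost KCNJ15 in normoxia (0.051) and KCNH1 and KCNJ15 in hypoxia (0.0675 to 0.104). In monolayer the hypoxia calls of KCNG1, KCNH5, KCNJ14 and KCNMB4 were lost on the deposited values (0.0513 to 0.559). Centring lost those of KCNAB1, KCNAB3 and KCNJ14 (0.0655 to 0.113), and quantile normalization those of KCNJ14 and KCNMB4 (0.0726 to 0.122). Library totals lost those of KCNH5, KCNJ6, KCNMB4 and SCN9A (0.0549 to 0.53). In EHT the deposited values lost the hypoxia calls of KCNG1, KCNJ3, KCNMA1, KCNMB4, SCN2A and SCN2B (0.16 to 0.389). Centring lost those of KCNJ3, SCN2B and SCN9A (0.0976 to 0.202), and quantile normalization those of KCNMA1 and SCN2B (0.101 to 0.167). Library totals lost those of KCNG1, KCNMA1 and KCNMB4 (0.0744 to 0.127), and voom those of KCNG1 and KCNJ3 (0.0515 to 0.0672). The interactions of KCNMA1 and KCNS3 were lost on the deposited values (0.0998 to 0.357). Centring lost those of KCNJ14 and KCNMA1 (0.0594 to 0.0699), and quantile normalization those of KCNIP2 and KCNJ14 (0.0513).

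Genes that traffic, anchor or modify these channels were taken from a list of 30, of which 19 were tested. They were 1 higher and 5 lower in EHT in normoxia (median -0.38), and 1 and 10 in hypoxia (median -0.72). After hypoxia 5 rose and 4 fell in monolayer, and 6 rose and 3 fell in EHT; the interaction was positive for 4 and negative for 2. Over all tested genes the shares higher and lower were 18.7% and 23.9% between cultures in normoxia, 17.8% and 22% in hypoxia, 23.4% and 23.1% after hypoxia in monolayer, 19.5% and 18.2% in EHT and 12.7% and 12.8% for the interaction. The lower calls in normoxia were thus near the share of all genes. NEDD4L, a ubiquitin ligase that removes sodium and potassium channels from the membrane, had 467, 444 and 403 scaled reads in monolayer normoxia, 947, 1057 and 986 in monolayer hypoxia, 164, 139 and 108 in EHT normoxia and 536, 518 and 469 in EHT hypoxia. NEDD4L rose after hypoxia in monolayer (1.19 ± 0.15, adjusted p = 7.1e-05) and in EHT (1.90 ± 0.15, adjusted p = 4.0e-06), and was lower in EHT in normoxia (-1.69 ± 0.15, adjusted p = 7.5e-06). ANK2, a membrane scaffold of heart muscle, rose in both cultures (1.35 ± 0.24 and 1.20 ± 0.24, adjusted p = 0.00066 and 0.00201). NRCAM, an adhesion molecule that gathers sodium channels at axon nodes, had 106, 129 and 135 scaled reads in monolayer normoxia, 158, 159 and 178 in monolayer hypoxia, 639, 502 and 348 in EHT normoxia and 80.9, 60.8 and 118 in EHT hypoxia. It was higher in EHT in normoxia (1.96 ± 0.26, adjusted p = 0.000109) and fell after hypoxia in EHT (-2.51 ± 0.26, adjusted p = 2.5e-05).

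Other ion channels, pumps and exchangers were taken from a list of 29, of which 25 were tested. They were 4 higher and 8 lower in EHT in normoxia (median -0.39), and 1 and 15 in hypoxia (median -0.97). After hypoxia 7 rose and 3 fell in monolayer, and 3 rose and 6 fell in EHT; the interaction was positive for 0 and negative for 7. The shares of all tested genes were, as above, 18.7% and 23.9% higher and lower in normoxia and 17.8% and 22% in hypoxia, which the calls in normoxia were near. CACNA1G, a low-voltage calcium channel of pacemaker cells, had 382, 309 and 379 scaled reads in monolayer normoxia, 96.0, 115 and 87.0 in monolayer hypoxia, 19.4, 14.5 and 41.9 in EHT normoxia and 11.2, 19.0 and 5.7 in EHT hypoxia. CACNA1G was lower in EHT in normoxia (-3.90 ± 0.43, adjusted p = 2.8e-05) and in hypoxia (-3.08 ± 0.43, adjusted p = 0.000232), and fell after hypoxia in monolayer (-1.84 ± 0.43, adjusted p = 0.00415). ABCC8, the regulatory partner of KCNJ11, had 27.5, 45.5 and 45.1 scaled reads in monolayer normoxia, 26.5, 23.7 and 22.5 in monolayer hypoxia, 0, 2.6 and 0 in EHT normoxia and 1.4, 7.6 and 0 in EHT hypoxia and was lower in EHT in both conditions (-4.69 ± 0.78 and -3.20 ± 0.78, adjusted p = 0.000506 and 0.00654). ABCC9, the partner of KCNJ8 in muscle, had no call between cultures (-0.39 ± 0.58, adjusted p = 0.627 in normoxia; 0.34 ± 0.58, adjusted p = 0.666 in hypoxia).

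The remaining 41 channel genes lay below the filter and were not tested. They held 0 to 179 reads in all 12 libraries together, with a median of 16, and KCNA10, KCNG4, KCNK18, KCNV2 and SCN4B had none. Of the 36 with a read, 28 had their highest mean in monolayer normoxia. The same share over all genes below the filter was not computed, so the count is not a trait of channel genes. Monolayer normoxia libraries had reads for 14006 to 14372 genes of the table, and the other groups for 11784 to 13301. KCNIP4 had the most reads, with 13.98, 28.2 and 64.03 scaled reads in monolayer normoxia and at most 4.55 elsewhere. The genes nearest to the filter inside it were KCNG2, KCNJ5 and KCNJ11, at means of 1.01, 1.03 and 1.05 log2 units above the table's lowest value, and those outside it KCNIP1, KCNIP4 and KCNK13, at 0.986, 0.945 and 0.887.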

How the data were processed

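RNA of 12 libraries was prepared, per the labels' protocols, with RNeasy kits and the Ion Total RNA-Seq kit and read on the Ion Proton. HISAT2, featureCounts and DESeq2 were used, per the submitters' processing notes; their versions, the genome build and the strand setting are not stated in any source used. The table deposited by the authors gives variance-stabilised expression in log2 units. Inverting that transformation gave whole reads, to within 0.01, for 100% of the table's entries. Totals were 4154346 to 11298841 reads. The scaling in the deposited values was 0.412 to 1.42 times the median-of-ratios factors, so reads were rescaled with the latter.

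Genes with a mean deposited value at least 1 above the table minimum were tested, 12084 in all. limma 3.58.1 in R 4.3.3 was fitted to log2(scaled reads + 1) of all 12 libraries, with 1 mean per group and a mean-variance trend, and the Benjamini-Hochberg adjustment was made separately for 5 comparisons at a threshold of 0.05. The fit was run on simulated counts that gave every gene the same relative spread. That run does not test it for genes whose replicates vary more. Folds against groups at 0 reads used a limit of 3 reads over the group, and intervals are exact Poisson; both cover counting error only. All 100 symbols matched RefSeq (assembly T2T-MMU8v2.0), and 13 tested genes overlap another protein-coding gene there. These are KCNG2, KCNJ5, KCNJ14 and KCNK6, given above, and KCNAB2, KCND2, KCNH3, KCNK4, KCNMA1, KCNN1, KCNS3, SCN8A and SCN9A. Named genes were those called with the largest differences and genes of the cardiac action potential. Some tested channel genes are not reported here: they stay in the fits and in counts over the 59, and not in the figures. The members and lists were chosen with earlier results of these data known. Libraries of EHT normoxia and EHT hypoxia sharing a replicate number had correlations of 0.109, 0.263 and 0.329 in their deviations from group means. Libraries of unlike numbers were not compared, so whether the numbers pair these was not tested. The labels do not say, and the main fit used no pairing. Alternatives were other scalings, pseudocounts, filters, variance models, voom on the recovered reads, a replicate block, array weights, the compared groups fitted alone, and fits with libraries omitted. Figures were drawn with matplotlib 3.10.9.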

Additional observations from a re-analysis of the deposited data

Results flagged for a closer look

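For 9 of the 59 tested channel genes, 8 of them given here, the difference between hypoxia and normoxia was not the same in the cultures, by limma's interaction term with p adjusted over all genes. The log2 interaction, which is the difference in EHT minus that in monolayer, was positive for KCNJ15 at 7.22, KCNH8 at 5.98, KCNIP2 at 2.31, KCNJ14 at 2.12 and KCNMA1 at 1.001. It was negative for KCNMB1 at -4.51, KCNS3 at -3.62 and SCN2A at -3.31. Over all genes tested 25.5% had a called interaction. Groups of 3 libraries are too small for a test of single outlying samples.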

How the results depend on the processing

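The directions of called genes held under every scaling, with KCNMA1 as the exception: its culture difference in normoxia was -0.0252 on the deposited values against 0.65. KCNH2 had no called interaction, and its value turned from -0.14 to 1.41 without EHT hypoxia replicate 3, with a range of -1.09 to 1.41 over fits without 1 library, and to 1.28 without both EHT libraries numbered 3; the cause was not tested. Of 96 calls, 68 held on the deposited values, 79 after centring, 79 after quantile normalization, 83 with library totals and 87 with voom. A stricter filter, which left out more genes with few reads, kept 31 channel genes. It gave 15 calls between cultures in normoxia, 6 for hypoxia in monolayer and 8 in EHT. All 10481 genes left by it gave 2199 higher and 2319 lower, 2789 and 2451, and 2239 and 2139. For hypoxia in monolayer, quantile normalization gave 27 calls, the compared groups alone 31, array weights 26 and omission of both EHT libraries numbered 3 26. Over all genes the higher and lower calls were then 2865 and 2740, 3319 and 3519, 3453 and 3536, and 3350 and 3482. For hypoxia in EHT the deposited values gave 7, the compared groups alone 7, array weights 21 and omission of both replicates 3 21. Over all genes the higher and lower calls were 858 and 270, 1646 and 1430, 3013 and 2751, and 2971 and 2586. The interaction gave 16 with library totals, 16 with a pseudocount of 4, 17 without a filter, 22 with array weights and 23 without both replicates 3. Over all genes the positive and negative calls were 2898 and 688, 1637 and 1606, 1729 and 1512, 2431 and 2334, and 2281 and 2099. Leaving out 1 library gave 24 to 37 and 23 to 29 calls between cultures in normoxia and hypoxia, 9 to 23 for hypoxia in monolayer, 7 to 19 in EHT and 7 to 20 for the interaction. Over all genes, higher or positive calls were 1755 to 2604, 1646 to 2202, 2307 to 3162, 1808 to 2953 and 1121 to 2144. Lower or negative ones were 2300 to 3319, 1915 to 2753, 2166 to 3234, 1622 to 2557 and 1129 to 1992. Calls of channel genes that held in all 12 such fits were 23 of 30, 22 of 27, 8 of 17, 5 of 13 and 7 of 9.

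Outside the comparison within EHT, libraries sharing a number had correlations of -0.0663 to 0.193. Whether the numbers pair any samples was not tested. With the replicate block the calls were 32, 27, 18, 12 and 11; KCNQ1 in normoxia, KCNJ5 between cultures in hypoxia and KCND3 after hypoxia in monolayer were called (adjusted p = 0.0317, 0.046 and 0.0488), and KCNH1 in hypoxia and KCNJ6 in monolayer were not (0.066 and 0.0512). Relative to median-of-ratios scaling, library totals moved the median of all genes by -0.30, 0.14, -0.64 and -0.20 in the first 4 comparisons. Depth limits genes with few reads, where a count of 0 allows up to 3 reads.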

Other observations

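Ratios of subunits within a library were taken on scaled reads + 1. They are not corrected for transcript length, so the differences between groups can be read and the levels cannot. The log2 ratio of KCNMB1, the smooth muscle beta subunit, over KCNMA1, the pore it joins, was -3.61 ± 1.09 in monolayer normoxia, -1.12 ± 0.16 in monolayer hypoxia, -3.39 ± 0.87 in EHT normoxia and -6.40 ± 1.55 in EHT hypoxia (mean ± SD, n = 3). Monolayer hypoxia and EHT hypoxia were thus at the ends of the order. For KCNMB4, the neuronal beta subunit, over KCNMA1 the log2 ratio was -1.08 ± 0.34 in monolayer normoxia, 0.03 ± 0.21 in monolayer hypoxia, -3.86 ± 0.74 in EHT normoxia and -3.66 ± 1.03 in EHT hypoxia. This ratio was lower in EHT than in monolayer by more than the SD of either culture. No test was made of these ratios.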
